A study of Mus musculus with 12 samples.

Results

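The bone morphogenetic protein (BMP) pathway was followed at the RNA level in embryonic mouse lungs kept as explants, through 10 genes: the ligands Bmp2, Bmp4, Bmp5 and Bmp7, the secreted antagonist Grem1, the receptors Bmpr1a and Bmpr1b, the inhibitory protein Smad6 and the targets Id1 and Id3. They were picked by symbol out of 24421 symbols in a table of read counts, and all 10 passed the filter on low counts. The lungs came from wild type CD-1 mice, were isolated at embryonic day 12.5 and were grown in Matrigel on a porous insert between air and medium, which is common to all 3 groups. Lungs of the Day 2 compression group (4 libraries) were enclosed at Day 0 in a 20% solution of PEG-HCC, a polyethylene glycol conjugate that a two-photon laser turned into a stiff barrier, and this held back their growth for 2 days. Lungs of the Day 2 control group (4 libraries) spent the same time in the same solution left uncrosslinked, and lungs of the Day 0 group (4 libraries) were sampled at the start. Crosslinking and the restriction it produced came together and cannot be told apart, and no source used here says whether Day 0 lungs had received the solution. Nothing in the labels ties each library to its own animal, so p-values measure the spread between these samples, which may be technical. The descriptions of compression replicates 2 and 3 share a number and differ by the letter after it, A or B. Whether these 2 libraries are from separate lungs is not given.

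BMP ligands are secreted dimers that bind a complex of type I and type II receptors, which phosphorylate Smad1, Smad5 and Smad9; these join Smad4 and turn on targets such as the Id genes. Antagonists such as gremlin trap the ligands outside the cell, and Smad6 blocks the signal inside it as a feedback inhibitor. In the embryonic mouse lung, Bmp4 is concentrated in the distal epithelial tips and the mesenchyme near them, and BMP signalling takes part in branching and in setting distal against proximal epithelial fates.

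Total counts ranged from 13979871 to 33249761 per library. Markers of lung epithelium and lung mesenchyme, 8 genes each, were all detected in every group. Levels are given in CPM (counts of a gene per 1000000 counts of the TMM-scaled library). The epithelial sums were 1550 to 1680 CPM in compressed lungs, 1540 to 1700 CPM in controls and 999 to 1110 CPM at Day 0. Both Day 2 groups thus lay above Day 0. The mesenchymal sums overlapped, at 2170 to 2740 CPM in compressed lungs, 1930 to 2570 CPM in controls and 2290 to 2870 CPM at Day 0. Control replicate 4 stood apart by liver genes, with a summed level of 1590 CPM over 8 liver markers against at most 18.0 CPM in any other library. Compression replicate 4 had the largest share of counts on the ribosomal precursor Rn45s (5.64%, against 0.553% to 2.67% in the other libraries). Control replicates 2 and 3 and compression replicate 1 had high Xist, while Y-linked genes were read in the other 9. Compression replicates 2 and 3 were the closest pair within any group, with a common dispersion of 0.000876 against 0.00557 to 0.0428 in the other pairs, but still differed by more than counting noise (chi-square per degree of freedom 4.05). At Day 0, replicates 1 and 2 (0.00904) and replicates 3 and 4 (0.00557) were closer than any pair across them (0.0146 to 0.0310). The parts that these features play in the results below were not tested, except where a value without a library is given.

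Promoter windows of 3 members, from the RefSeq table for GRCm38.p6, are shown because Bmp4, Bmp5 and Grem1 moved against Day 0 and their windows lay upstream of the annotated gene, save the last base of the Bmp5 window. Of the 10 members, 7 matched the table by symbol. Each window is the 250 bases before the start, written along the gene's strand. Capitals mark CAGAC, the core of a Smad binding element, in either strand (GTCTG), and GGCGCC, a palindrome described for BMP-activated Smads; the 2 motifs do not overlap where found.
Bmp4, chr14:46390670-46390919, minus strand: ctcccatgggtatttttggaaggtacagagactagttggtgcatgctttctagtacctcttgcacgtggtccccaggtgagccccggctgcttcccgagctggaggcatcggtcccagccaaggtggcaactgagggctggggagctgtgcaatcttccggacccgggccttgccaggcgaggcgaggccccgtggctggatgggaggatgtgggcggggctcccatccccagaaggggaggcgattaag
Bmp5, chr9:75775115-75775364, plus strand: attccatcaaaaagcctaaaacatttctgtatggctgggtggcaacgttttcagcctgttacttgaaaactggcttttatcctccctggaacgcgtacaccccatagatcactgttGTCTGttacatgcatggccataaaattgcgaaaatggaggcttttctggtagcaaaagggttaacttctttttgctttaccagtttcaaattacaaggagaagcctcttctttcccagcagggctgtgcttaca
Grem1, chr2:113758649-113758898, minus strand: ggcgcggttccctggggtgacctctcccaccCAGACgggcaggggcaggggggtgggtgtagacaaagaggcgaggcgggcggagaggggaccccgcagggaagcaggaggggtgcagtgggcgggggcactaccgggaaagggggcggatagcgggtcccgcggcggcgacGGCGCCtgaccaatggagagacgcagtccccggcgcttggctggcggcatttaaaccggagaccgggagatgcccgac
Neither motif was found in the Bmp4 window. The Bmp5 window held GTCTG from 134 bases before the start. The Grem1 window held CAGAC from 219 and GGCGCC from 78 bases before the start. Among 32851 RefSeq windows of the same length, 42.2% held CAGAC in either strand and 9.59% held GGCGCC, and a match is a description of letters, not a binding site.

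None of the 10 members passed an adjusted p of 0.05 between compressed and control lungs at Day 2. Id1 was the member with the smallest p, with a fitted level 1.38-fold that of controls, and Bmp4 came next at 1.23-fold. Against Day 0 the ligands moved apart from each other: Bmp5 rose and Bmp7 fell in both Day 2 groups, Grem1 fell in both, Bmp4 rose in the compression group, and Id3 fell in the control group. The receptors Bmpr1a and Bmpr1b, Bmp2, Smad6 and Id1 passed the threshold in no comparison of this fit. All tests are edgeR quasi-likelihood tests with Benjamini-Hochberg adjustment over 15246 genes. The comparisons of both Day 2 groups with Day 0 share the Day 0 libraries, and the compression libraries enter 2 comparisons.

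**Figure D1:**
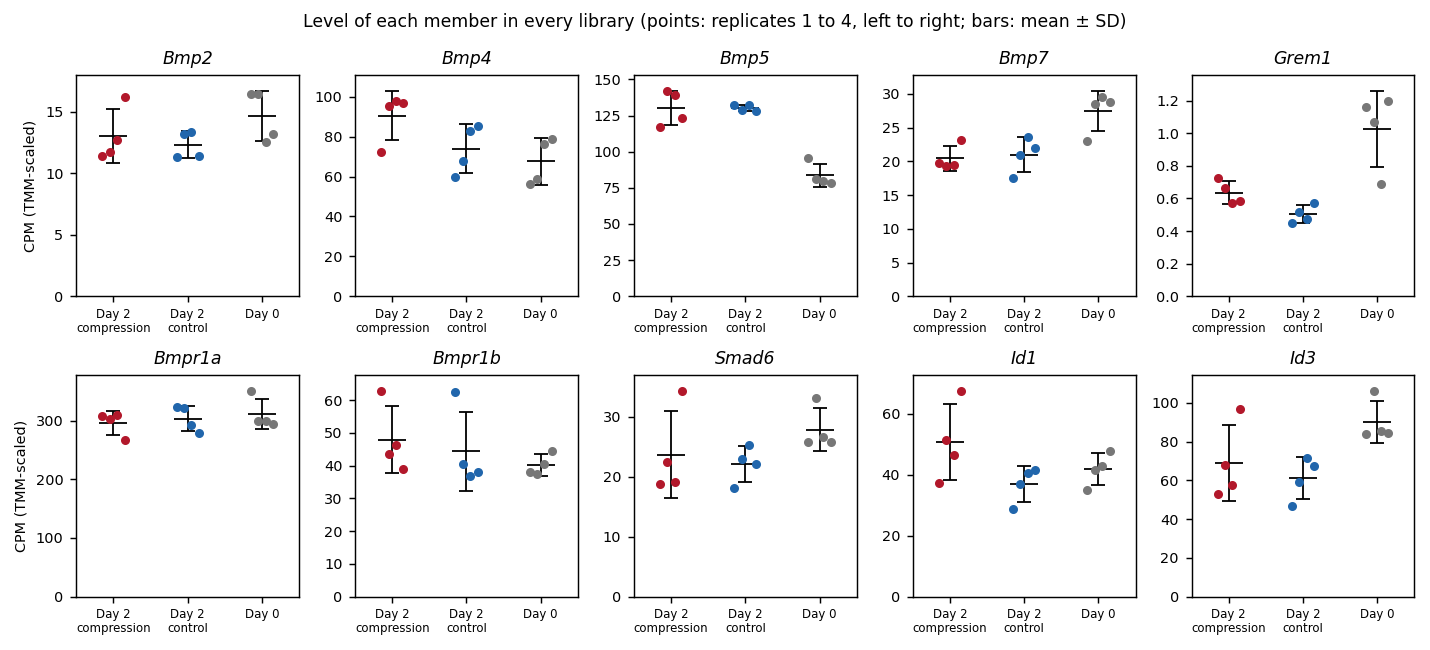
CPM of each of the 10 members (y axis, from 0) in the 4 libraries of Day 2 compression, Day 2 control and Day 0 (x axis); points are replicates 1 to 4 from left to right and bars are the mean ± SD. The Bmp5 points of both Day 2 groups, 117 to 142 CPM, lie above the Day 0 points, 78.3 to 95.7 CPM, and the Id1 points of compressed lungs, 37.4 to 67.4 CPM, overlap those of controls, 28.6 to 41.6 CPM.

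Bmp4 (chr14:46383520-46390669, minus strand), a ligand of the distal lung tips, was measured at 72.1, 95.2, 97.9 and 97.0 CPM in compression replicates 1 to 4. Control replicates 1 to 4 held 59.7, 67.7, 83.0 and 85.3 CPM, and Day 0 replicates held 56.3, 58.9, 76.5 and 78.7 CPM. Of the compressed lungs, 3 lay above every other library, but replicate 1 lay within the range of both other groups. The group means were 90.6 ± 12.4 CPM under compression, 73.9 ± 12.3 CPM in controls and 67.6 ± 11.6 CPM at Day 0 (SD, n = 4 each). Compression against control gave a log2 fold change of 0.30 (SE 0.14, 95% interval -0.01 to 0.60), which did not pass (edgeR adjusted p = 0.427). Bmp4 rose in compressed lungs against Day 0, by 0.42 on the log2 scale (SE 0.14, edgeR adjusted p = 0.0262). That call was lost without Day 0 replicate 1 or 2 or compression replicate 2, 3 or 4 (adjusted p 0.075 to 0.104), and with compression replicates 2 and 3 summed to 1 library (adjusted p = 0.0809). The control against Day 0 difference was 0.12 (SE 0.14, edgeR adjusted p = 0.52).

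Markers of the distal tip epithelium are given beside Bmp4. Summed over 8 markers (Sox9, Etv4, Etv5, Sftpc, Id2, Lamp3, Bex1 and Clu, none at 0), they stood at 1340, 1970, 1980 and 1780 CPM in compression replicates 1 to 4, at 914, 980, 1370 and 1440 CPM in control replicates, and at 664, 683, 826 and 830 CPM at Day 0. In each group the library with the lowest sum also had the lowest Bmp4. Without Sftpc, which encodes a surfactant protein, the sum was 661 to 808 CPM under compression, 454 to 736 CPM in controls and 615 to 738 CPM at Day 0. Its means were 749 CPM under compression, 601 CPM in controls and 678 CPM at Day 0, so that the control mean lay below that of Day 0. Sftpc itself averaged 1016 ± 254 CPM under compression, 574 ± 136 CPM in controls and 73.0 ± 23.0 CPM at Day 0 (SD, n = 4 each). None of the 8 passed between compression and control by edgeR, beside 0% of all genes. An unadjusted p under 0.05 was found for 4, beside 12.1% of all genes, and 6 had a positive log2 fold change, beside 7780 of all 15246 genes. In controls against Day 0 the 8 markers divided, with 4 positive and 4 negative log2 fold changes. Of these, 2 were called higher and 2 lower by edgeR, beside 22.6% and 17.6% of all genes. In compressed lungs against Day 0, 4 were called higher and 3 lower, beside 26.6% and 22.5% of all genes. The part of these cells in the Bmp4 values was not tested. In bulk samples such as these, fewer cells of a type and less RNA per cell cannot be told apart.

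**Figure D2:**
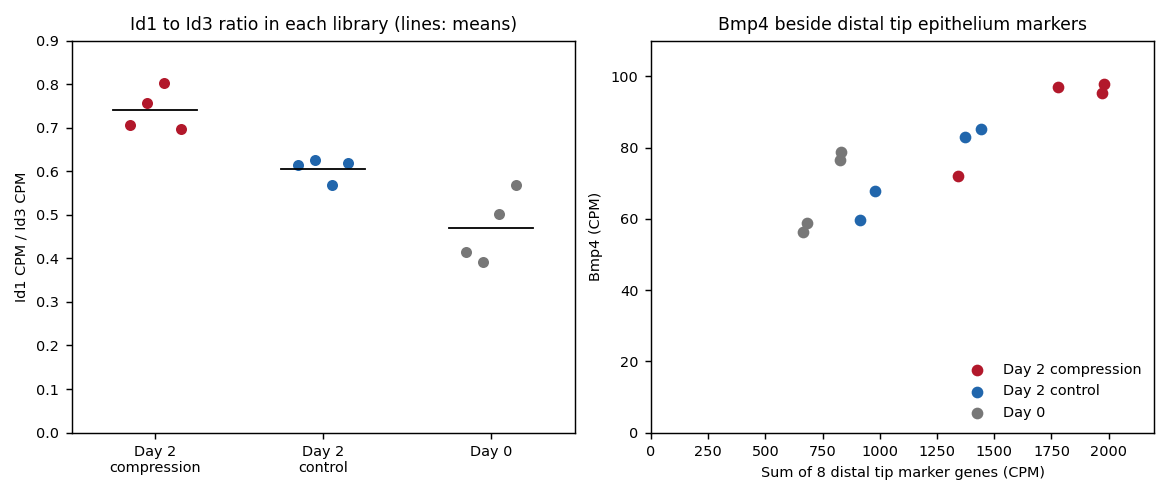
Left, Id1 CPM divided by Id3 CPM (y axis) in each library of the 3 groups (x axis), with lines at the group means; the compressed lungs, 0.698 to 0.804, lie above the controls, 0.568 to 0.625. Right, Bmp4 CPM (y axis) against the summed CPM of 8 distal tip markers (x axis), 1 point per library; compression replicate 1 (72.1 CPM of Bmp4, marker sum 1340 CPM) lies below and left of the other compressed lungs.

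Bmp5 (chr9:75775364-75900310, plus strand), the ligand whose loss gives short-eared mice, was the member with the clearest change from Day 0. It was measured at 117, 142, 139 and 123 CPM in compressed lungs, at 132, 129, 132 and 128 CPM in controls and at 95.7, 81.4, 79.6 and 78.3 CPM at Day 0. Neither Day 2 group overlapped Day 0, and the control values lay within the range of the compressed ones. Bmp5 rose in controls by 0.63 on the log2 scale (SE 0.08, edgeR adjusted p = 2.62e-05), a 1.55-fold change, and in compressed lungs by 0.64 (SE 0.08, edgeR adjusted p = 1.72e-05). Between compression and control the difference was 0.00 with a 95% interval of -0.16 to 0.16 (edgeR adjusted p = 0.993). Over 46.7% of its exon length Bmp5 overlaps Gm26903 on the opposite strand, a gene with no row in the table, and the strand setting of the counts is unknown.

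Bmp7 (chr2:172868012-172940321, minus strand), a ligand needed for kidney and eye development in mice, fell where Bmp5 rose. It stood at 19.7, 19.3, 19.5 and 23.2 CPM in compressed lungs, 17.5, 21.0, 23.6 and 22 CPM in controls and 23.0, 28.5, 29.5 and 28.8 CPM at Day 0. Day 0 replicate 1 was low enough to overlap both Day 2 groups. Bmp7 fell by 0.42 on the log2 scale in compressed lungs (SE 0.11, edgeR adjusted p = 0.00465) and by 0.39 in controls (SE 0.11, edgeR adjusted p = 0.0106). Compression against control gave -0.04 (SE 0.11, edgeR adjusted p = 0.895). Bmp2 (chr2:133552159-133562885, plus strand), a ligand known for bone formation, was measured at 11.4, 11.7, 12.7 and 16.2 CPM in compressed lungs, 11.3, 13.2, 13.3 and 11.4 CPM in controls and 16.4, 16.4, 12.5 and 13.2 CPM at Day 0. Its 3 groups overlapped. Its log2 differences of 0.08 (compression against control), -0.24 (control against Day 0) and -0.16 (compression against Day 0) did not pass (edgeR adjusted p = 0.81, 0.154 and 0.313). Without compression replicate 4, where Bmp2 was highest, the last was -0.31 with an adjusted p of 0.0463.

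Grem1 (chr2:113746164-113758646, minus strand), which encodes the antagonist gremlin that binds BMP2, BMP4 and BMP7, was the lowest member. Its read counts were 19, 19, 17 and 18 in compressed lungs, 14, 15, 14 and 9 in controls and 27, 15, 15 and 40 at Day 0. As levels these were 0.723, 0.664, 0.574 and 0.583 CPM under compression, 0.451, 0.515, 0.476 and 0.575 CPM in controls and 1.16, 1.07, 0.688 and 1.2 CPM at Day 0. All controls lay below all Day 0 lungs, while compression replicate 1 lay above Day 0 replicate 3. Grem1 fell in controls by 1.04 on the log2 scale (SE 0.25, edgeR adjusted p = 0.00419) and in compressed lungs by 0.70 (SE 0.24, edgeR adjusted p = 0.0257). The call for compressed lungs was lost without Day 0 replicate 1 or 4 or compression replicate 3 or 4 (adjusted p 0.0523 to 0.0685) and by DESeq2 (adjusted p = 0.0631). Compression against control gave 0.35 with a 95% interval of -0.19 to 0.88 (edgeR adjusted p = 0.567).

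Bmpr1a (chr14:34410734-34503341, minus strand), the type I receptor ALK3, varied least of the 10 over the 12 libraries (SD 0.098 on the log2 scale). It was measured at 308, 302, 310 and 267 CPM in compressed lungs, 323, 321, 292 and 278 CPM in controls and 350, 300, 299 and 295 CPM at Day 0. The groups overlapped and its log2 fold changes ranged from -0.07 (compression against Day 0) to -0.03 (compression against control, 95% interval -0.20 to 0.13), with edgeR adjusted p-values of 0.472 and 0.867. Bmpr1b (chr3:141837136-142169425, minus strand), the type I receptor ALK6, known from limb cartilage, stood at 62.7, 43.6, 46.3 and 39.1 CPM in compressed lungs, 62.4, 40.4, 36.7 and 38.1 CPM in controls and 38.0, 37.4, 40.6 and 44.6 CPM at Day 0. Replicate 1 of each Day 2 group lay above all other libraries. The log2 differences were 0.11 (compression against control), 0.15 (control against Day 0) and 0.25 (compression against Day 0), and none passed (edgeR adjusted p = 0.809, 0.533 and 0.244). Without compression replicate 1 the first turned to -0.055, and with only the libraries that had Y-linked reads it turned to -0.23. Sox2, a marker of the proximal airway epithelium, was high in the same libraries, at 60.2, 44.9, 47.2 and 40.0 CPM in compressed lungs, 59.2, 45.5, 38.2 and 31.4 CPM in controls and 30.5, 39.9, 38.1 and 40.6 CPM at Day 0. Of 11232 genes searched, Sox2 was also the one most like Bmpr1b, so it is not an independent choice. Summed over 8 proximal airway markers, compression replicates 1 to 4 held 281, 373, 374 and 245 CPM, so that replicate 1 was not the highest. Control replicates 1 to 4 held 251, 115, 179 and 126 CPM. The range was 38.4 to 62.4 CPM at Day 0, where Scgb1a1 was at 0. The part of these cells in the Bmpr1b values was not tested.

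Smad6 (chr9:63953076-64022059, minus strand), the feedback inhibitor, was measured at 18.8, 22.5, 19.1 and 34.3 CPM in compressed lungs, 18.2, 22.9, 25.3 and 22.2 CPM in controls and 25.8, 33.2, 26.6 and 25.8 CPM at Day 0. All controls lay below all Day 0 lungs, and compression replicate 4 lay above every other library. Control against Day 0 gave -0.33 on the log2 scale (SE 0.18), which did not pass (edgeR adjusted p = 0.157). It passed where only the libraries of these groups were fitted (-0.34, adjusted p = 0.0415). Compression against Day 0 gave -0.23 (SE 0.18, edgeR adjusted p = 0.294), and without compression replicate 4 it gave -0.48 (adjusted p = 0.00706). Compression against control gave 0.10 (SE 0.18, edgeR adjusted p = 0.828) and turned to -0.14 without that library.

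Id1 (chr2:152736251-152737410, plus strand) and Id3 (chr4:136143497-136145755, plus strand) encode inhibitors of basic helix-loop-helix factors and are direct BMP targets. Id1 was measured at 37.4, 51.5, 46.5 and 67.4 CPM in compressed lungs, 28.6, 36.9, 40.6 and 41.6 CPM in controls and 34.9, 41.6, 43.0 and 47.9 CPM at Day 0. In compressed lungs 3 of 4 values lay above every control, and replicate 1 lay within the control range. The means were 50.7 ± 12.6 CPM under compression, 37.0 ± 5.91 CPM in controls and 41.8 ± 5.36 CPM at Day 0 (SD, n = 4 each). Compression against control gave 0.46 on the log2 scale (SE 0.17, 95% interval 0.10 to 0.82), which did not pass (edgeR adjusted p = 0.376). Only limma-voom with quality weights passed it among the alternatives run (0.37, adjusted p = 0.0365), where the adjusted p ranged up to 0.688. Without compression replicate 4 the difference was 0.29. With compression replicates 2 and 3, both above every control, summed to 1 library it was 0.48 (edgeR adjusted p = 0.64). The differences from Day 0 were 0.28 in compressed lungs (edgeR adjusted p = 0.182) and -0.18 in controls (edgeR adjusted p = 0.41).

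Id3 was highest at Day 0. It stood at 52.9, 67.9, 57.8 and 96.7 CPM in compressed lungs, 46.6, 59.1, 71.5 and 67.4 CPM in controls and 84.1, 106, 85.5 and 84.2 CPM at Day 0. All controls and 3 of 4 compressed lungs lay below all Day 0 lungs, and compression replicate 4 lay among the Day 0 values. Id3 fell in controls by 0.56 on the log2 scale (SE 0.18, edgeR adjusted p = 0.0249), a call lost without Day 0 replicate 2 or control replicate 1 or 2 (adjusted p 0.0541 to 0.0718). Compression against Day 0 gave -0.38 (SE 0.18, edgeR adjusted p = 0.0906), and -0.61 (adjusted p = 0.00413) without compression replicate 4. The same comparison passed by DESeq2 (-0.40, adjusted p = 0.0471) and by limma-voom (-0.45, adjusted p = 0.00712). Compression against control gave 0.17 (SE 0.18, edgeR adjusted p = 0.689), which turned to -0.04 without compression replicate 4.

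In compression replicate 4, where Rn45s took 5.64% of the counts, Id1, Id3, Smad6, Bmp2 and Bmp7 were each highest of their group. Endothelial markers are given beside Id3, which passed against Day 0 in controls alone, and Smad6, which passed in neither comparison. The endothelial sum over 8 genes was 76.5 to 95 CPM in compressed lungs, 52.0 to 105 CPM in controls and 304 to 517 CPM at Day 0. All 8 were lower by edgeR in both comparisons, beside 17.6% of all genes in controls and 22.5% in compressed lungs, and none was at 0. The part of either feature in these results was not tested.

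The ratio of Id1 to Id3 was highest in compressed lungs. The pair was chosen after its values were seen, so the ratio is given with no test. Id1 over Id3 was 0.707, 0.758, 0.804 and 0.698 in compressed lungs, 0.615, 0.625, 0.568 and 0.618 in controls and 0.415, 0.391, 0.503 and 0.569 at Day 0. All compressed lungs, replicate 4 included, lay above all controls, and control replicate 3 lay just below Day 0 replicate 4. The means were 0.742 ± 0.049 under compression, 0.607 ± 0.026 in controls and 0.47 ± 0.082 at Day 0 (SD, n = 4 each).

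**Figure D3:**
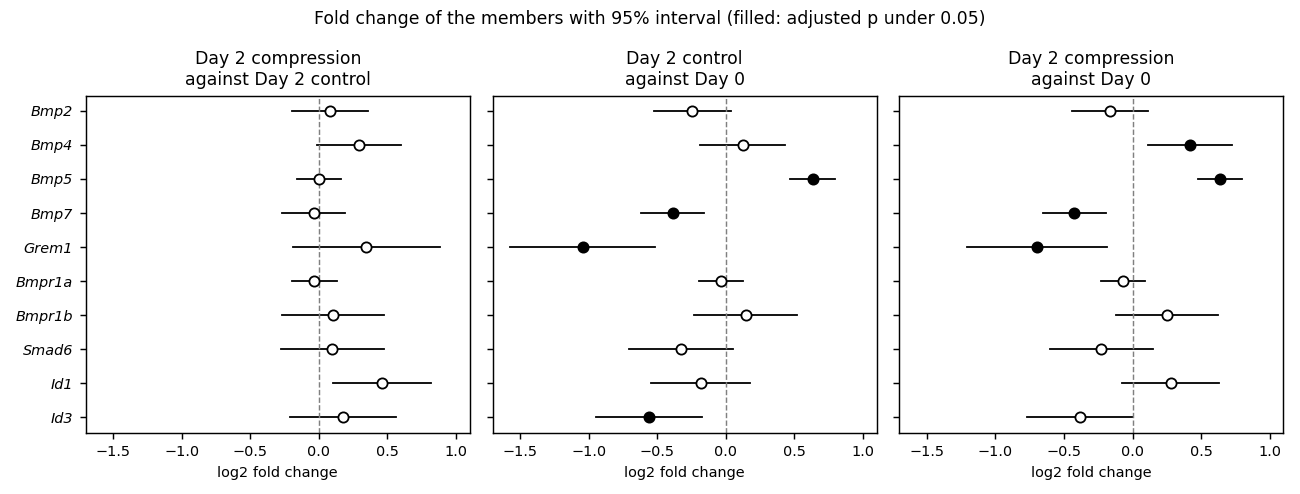
Log2 fold change of each of the 10 members (x axis) with its 95% interval in the 3 comparisons, Day 2 compression against Day 2 control, Day 2 control against Day 0 and Day 2 compression against Day 0; filled points passed an adjusted p of 0.05. No point is filled in the first panel, where Id1 (0.46) is farthest to the right, and Bmp5 (0.63 and 0.64) and Grem1 (-1.04 and -0.70) are filled in the others.

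Counted over the members, 0 of 10 were called between compression and control by edgeR and by DESeq2, and 1 (Id1) by limma-voom. Of all 15246 genes, edgeR called 0%, DESeq2 called 69 genes and limma-voom called 1958 genes. At an unadjusted p under 0.05 there was 1 member (Id1), beside 12.1% of all genes. No member separated compressed lungs from controls without overlap, beside 5.77% of all genes. The median log2 fold change was 0.10 over the members and 0.00 over all genes. It was positive for 8 of 10 members, beside 7780 of all 15246 genes. Of the 8, Bmp2, Bmp5, Bmpr1b, Smad6 and Id3 turned negative in some fit without 1 library. In controls against Day 0, 1 member was higher (Bmp5), beside 22.6% of all genes, and 3 were lower (Bmp7, Grem1 and Id3), beside 17.6% of all genes. Of the members, 4 did not overlap (Bmp5, Grem1, Id3 and Smad6), beside 37.9% of all genes. In compressed lungs against Day 0, 2 were higher (Bmp4 and Bmp5), beside 26.6%, 2 were lower (Bmp7 and Grem1), beside 22.5%, and only Bmp5 did not overlap, beside 43% of all genes. These shares of the members lie near or below those of all genes, apart from the 3 lower members in controls.

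Compared per kilobase of exon, the members covered a wide range of levels. In compressed lungs Bmpr1a was highest at 46.7 ± 3.2 CPM per kb, followed by Id1 (43.7), Bmp4 (40.3), Id3 (38.4) and Bmp5 (32.3), neighbours whose ranges overlapped. Bmpr1b (8.04), Smad6 (7.39), Bmp7 (5.08) and Bmp2 (3.66) formed a lower tier, and Grem1 was last at 0.153 CPM per kb. In controls Bmpr1a (47.8 CPM per kb) was clear of the next member, Id3 (34.1), which overlapped Bmp4 (32.9), Bmp5 (32.3) and Id1 (31.9). At Day 0 Id3 (50.3) stood first by its mean, beside Bmpr1a (49.0), and Bmp5 (20.8 CPM per kb) ranked below Id1 (36.1) and Bmp4 (30.1). Grem1 was last in all 3 groups.

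**Figure D4:**
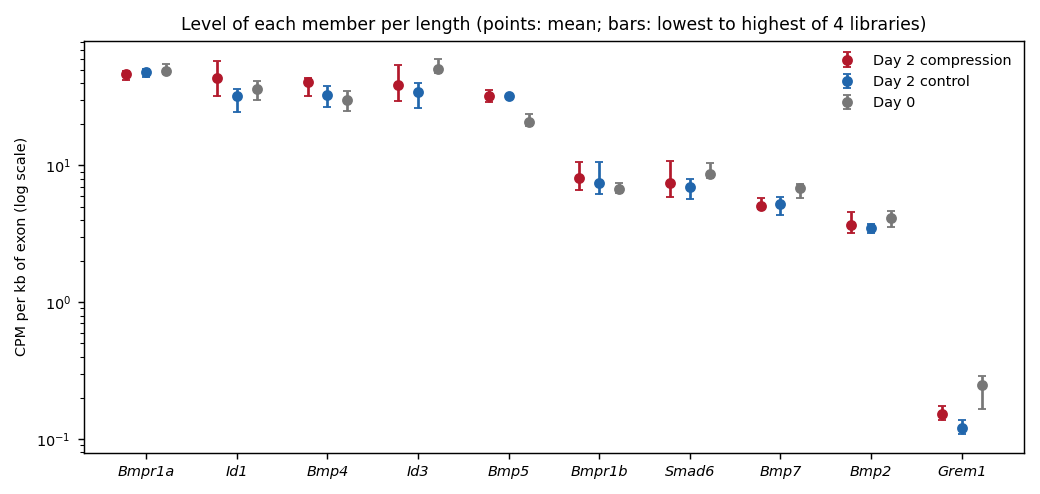
CPM per kilobase of exon of each member (y axis, log scale) in Day 2 compression, Day 2 control and Day 0, with points at the mean and bars from the lowest to the highest of 4 libraries. Bmpr1a, Id1, Bmp4, Id3 and Bmp5 form an upper tier, from 20.8 CPM per kb (Bmp5 at Day 0) to 50.3 (Id3 at Day 0), and Grem1 lies lowest, at 0.122 to 0.248 CPM per kb.

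A list of 51 other pathway genes places the members in the rest of the pathway, and 43 of them passed the filter. The 8 that did not were Bmp8a, Bmp10, Gdf2, Gdf7, Hfe2, Chrdl2, Sost and Tll2. Between compression and control, 0 of 43 passed by edgeR and by DESeq2, against 8 by limma-voom (7 higher, 1 lower). Of all 15246 genes, limma-voom called 1958 in this comparison, 1139 higher and 819 lower. At an unadjusted p under 0.05 there were 7, all positive, beside 12.1% of all genes in either direction. That share is 1839 genes, of which 1026 were positive. In 6 the groups did not overlap, all higher in compressed lungs, beside 5.77% of all genes in either direction. The median log2 fold change was 0.11. The 5 genes with the smallest p were Id2, Smad7, Bmp8b, Rgma and Crim1. Id2, an Id target that also marks the distal tips, stood at 119, 133, 132 and 136 CPM in compressed lungs and at 78.6, 87.4, 109 and 108 CPM in controls (0.44, SE 0.11, edgeR adjusted p = 0.307). Smad7, an inhibitory Smad of BMP and TGF-beta signals, stood at 58.1, 62.8, 58.2 and 71.7 CPM in compressed lungs and at 48.2, 48.9, 53.2 and 50.4 CPM in controls (0.32, SE 0.09, edgeR adjusted p = 0.309). Neither gene's groups overlapped. The ligand gene Bmp8b (0.70), the co-receptor gene Rgma (0.19) and the BMP-binding membrane protein gene Crim1 (0.23) had adjusted p-values of 0.356, 0.38 and 0.38, and of these Crim1 overlapped.

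Against Day 0 the rest of the pathway moved in both directions. In controls 9 of 43 rose and 18 fell, and in compressed lungs 12 rose and 19 fell, beside 22.6% and 17.6% of all genes in controls and 26.6% and 22.5% in compressed lungs. The groups did not overlap in 24 of 43 in controls, beside 37.9% of all genes, and in 28 of 43 in compressed lungs, beside 43%. Of the intracellular list, 5 of 7 fell in each comparison and none rose. Smad1, a receptor-activated Smad, stood at 45.5, 51.7, 51.9 and 49.1 CPM in compressed lungs, 44.1, 43.5, 48.3 and 42.4 CPM in controls and 65.5, 62.6, 61.9 and 71.4 CPM at Day 0. Smad1 fell by 0.40 in compressed lungs and by 0.55 in controls on the log2 scale (SE 0.07 each, edgeR adjusted p = 0.000336 and 3.75e-05), and neither Day 2 group overlapped Day 0. Of the other receptors, 4 of 9 fell in each comparison, among them Acvrl1, the endothelial receptor ALK1. None rose in controls and 1 rose in compressed lungs. Acvrl1 fell to 9.09, 14.1, 12.9 and 14.3 CPM in compressed lungs and 8.75, 9.02, 13.5 and 12.3 CPM in controls. Its Day 0 values were 28.3, 34.0, 38.3 and 57.3 CPM, beside the endothelial marker sums given above. Eng, a co-receptor gene of the same list, averaged 40.5 CPM in compressed lungs, 38.8 CPM in controls and 38.4 CPM at Day 0. It passed against Day 0 neither in compressed lungs (edgeR adjusted p = 0.703) nor in controls (edgeR adjusted p = 0.962). Bambi, a decoy receptor, fell by 0.65 on the log2 scale in controls (edgeR adjusted p = 0.000202). The target Id2 fell by 0.82 in controls (SE 0.11, edgeR adjusted p = 9.21e-05) and by 0.38 in compressed lungs (SE 0.11, edgeR adjusted p = 0.0141), with Day 0 values of 149, 148, 179 and 199 CPM.

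Antagonists and modifiers divided. Of 16 tested, 6 rose and 5 fell in controls (68.8% called, against 40.2% of all genes), and 7 rose and 6 fell in compressed lungs (81.2% called, against 49.1% of all genes). Fstl3, a follistatin-like binding protein, rose to 7.3, 12.2, 12.2 and 12.9 CPM in compressed lungs and 8.5, 9.92, 10.5 and 9.32 CPM in controls, against 3.08, 3.13, 2.66 and 2.52 CPM at Day 0. Its exons overlap Prss57 on the opposite strand over 47.3% of their length, with Prss57 at most at a mean of 0.202 CPM. Nbl1, which encodes the antagonist DAN, rose by 0.64 on the log2 scale in compressed lungs and by 0.53 in controls, the scale used for the genes that follow. Chrdl1, a chordin-like antagonist, fell by 2.14 in compressed lungs and by 1.71 in controls, and Kcp, a kielin/chordin-like protein, fell by 1.29 in compressed lungs and by 1.22 in controls. Bmp1, a protease that cleaves chordin, fell by 0.69 in compressed lungs, and Cer1, the antagonist cerberus, fell by 2.70 to a mean of 0.611 CPM in compressed lungs, against 3.92 CPM at Day 0. Among other ligands Gdf5 and Gdf6, known from joint formation, fell, with log2 fold changes of -2.08 and -1.43 in compressed lungs and -2.47 and -1.41 in controls, while Bmp8b rose by 2.87 in compressed lungs and by 2.16 in controls. Each change of these named genes passed, with edgeR adjusted p-values of at most 0.000403. Exons of Gdf5 overlap Gm15557 on the opposite strand over 40.3% of their length.

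**Figure D5:**
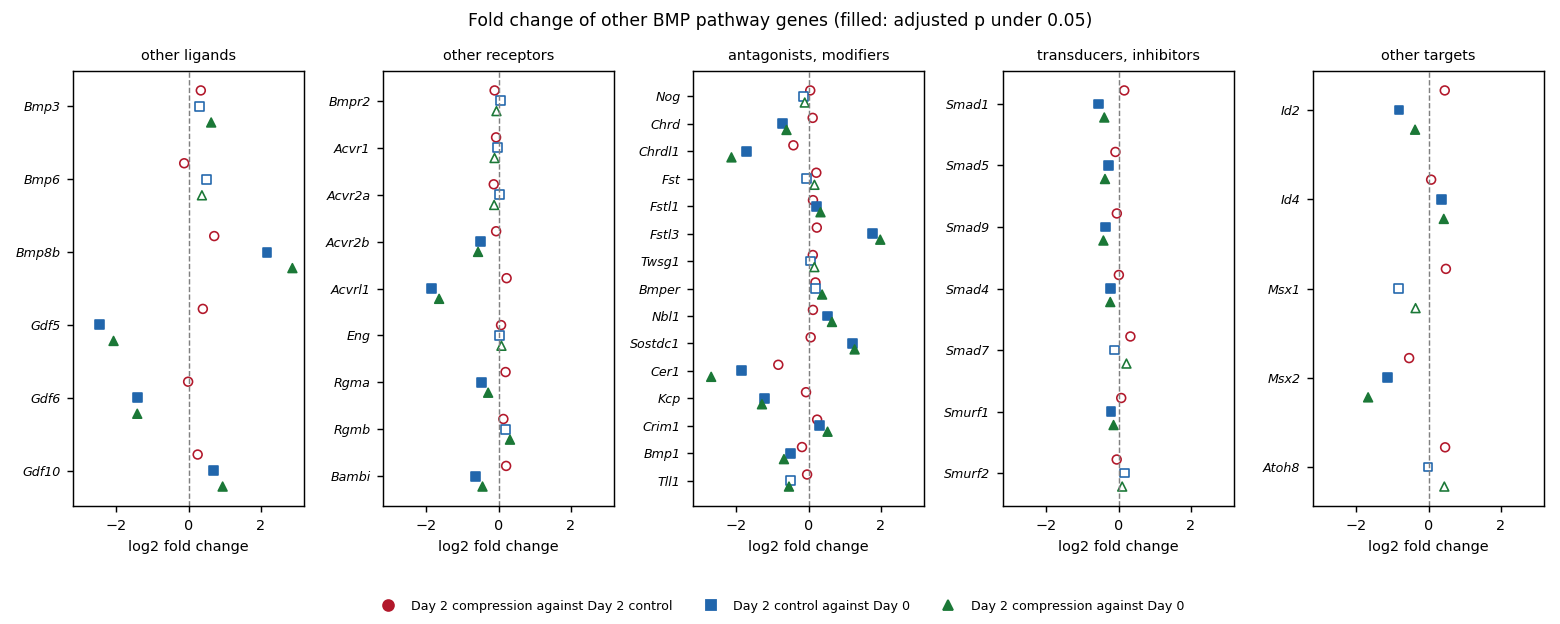
Log2 fold change (x axis) of other pathway genes tested, in panels by role, for Day 2 compression against Day 2 control (circles), Day 2 control against Day 0 (squares) and Day 2 compression against Day 0 (triangles); filled symbols passed an adjusted p of 0.05. No circle is filled, and Gdf5 (-2.08 and -2.47) and Bmp8b (2.87 and 2.16) lie far out on opposite sides against Day 0.

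The genes most like each member were found as those with the smallest root mean square difference of centred log2 CPM over the 12 libraries, among 11232 genes with a mean of at least 5 CPM. This measure of likeness, in log2 units, is 0 for identical patterns and is given as a description. It is not scaled by a gene's own spread, so genes that vary little lie near each other. The SD over the 12 libraries was 0.098 for Bmpr1a, 0.315 for Bmp5 and 0.424 for Grem1 on the log2 scale. Bmpr1a lay nearest to Ube2d3 (0.029) and Ywhaq (0.0302), and Bmp5 to Gyk (0.0452) and Rnf13 (0.0624). Bmp7 lay nearest to Plekhg5 (0.0635) and P3h3 (0.0727), Bmp2 to Fzd2 (0.0764) and Zbtb12 (0.084), and Smad6 to Zfp580 (0.0754) and Lzts2 (0.0849). The nearest gene to Id1 was Ier2 (0.0815), an immediate early gene, at 39.6, 57.3, 52.8 and 71.1 CPM in compressed lungs, 37.8, 41.3, 46.4 and 45.5 CPM in controls and 39.3, 44.1, 47.7 and 52.6 CPM at Day 0, followed by Irf2bpl (0.106). Id3 lay nearest to Snai1 (0.0813) and Dact3 (0.0895), and Bmp4 to Atp6v0a1 (0.0885) and Prkcdbp (0.103). Bmpr1b lay nearest to Sox2 (0.139), the proximal airway marker given above, and Strbp (0.141). Grem1, at few reads, had the most distant neighbours, Stc1 (0.15) and Scube1 (0.178).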

How the data were processed

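Whole-number read counts by gene symbol, not normalized, were deposited by the authors for 12 libraries of bulk RNA (KAPA mRNA HyperPrep kit, per the labels' protocols). Per the submitters' processing notes, fastp, STAR and the mm10 build were used. Not given in the sources used here: tool versions, counting step, annotation and strand setting. Of 24421 symbols, 4505 had no count. Total counts were 13979871 to 33249761 per library. Libraries of a group differed by more than counting noise (chi-square per degree of freedom 4.05 to 126 between pairs), and Grem1, at 9 to 40 reads, had the largest SE of the members.

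From these counts, genes were filtered with filterByExpr by group (min.count 10, min.total.count 15), leaving 15246 genes. They were fitted with the edgeR 4.0.16 quasi-likelihood method (R 4.3.3) on all 12 libraries with TMM factors and a term for the group alone, and p-values were adjusted by Benjamini-Hochberg at 0.05. CPM were computed on TMM-scaled library sizes, with a prior count of 2 before taking log2. The method was tested on simulated data, with changes larger than those of Id1 and Bmp4 between compression and control. How often changes as small as these would be called was not tested. Exon lengths and coordinates came by symbol from GENCODE vM21 (GRCm38, the assembly of mm10), and promoters from RefSeq. Alternatives used DESeq2 1.42.0 and limma 3.58.1, other settings, and fits without single libraries. Groups came from the labels. The main fit did not pair libraries by replicate number.

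Members, lists and tests were chosen with earlier results of these data known. Named pathway genes are those past the threshold, the 12 with the smallest p where more pass, or the 5 with the smallest p where fewer than 3 pass. A gene that this rule selects is not reported here. Genes named as markers, Eng, the Id1 to Id3 ratio and the value of Id2 in compressed lungs against Day 0 were added for description.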

Additional observations from a re-analysis of the deposited data

Results flagged for a closer look

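In groups of 4 libraries, a value was picked out where its gap to the nearest other value, divided by the group's range, exceeded Dixon's 95% critical value. Of 30 groups tested (10 members in 3 groups), 7 held such a value. The nominal rate of about 1 in 20 is for independent tests. The members share the same 12 libraries and no rate over all genes was computed, so an excess is not shown. In compressed lungs these were Bmp4 in replicate 1, the lowest at 72.1 CPM (ratio 0.895), and Bmp7 in replicate 4, the highest at 23.2 CPM (ratio 0.888). In controls it was Bmpr1b in replicate 1, the highest at 62.4 CPM (ratio 0.854). At Day 0 these were Bmp7 in replicate 1, the lowest at 23.0 CPM (ratio 0.843), Bmpr1a in replicate 1, the highest at 350 CPM (ratio 0.899), Smad6 in replicate 2, the highest at 33.2 CPM (ratio 0.887), and Id3 in replicate 2, the highest at 106 CPM (ratio 0.937). Day 0 replicate 2 had the fewest reads of all libraries (13979871).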

How the results depend on the processing

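Leaving out each library in turn gave ranges of log2 fold change. For compression against control they were -0.043 to 0.13 (Bmp2), 0.21 to 0.39 (Bmp4), -0.043 to 0.046 (Bmp5), -0.12 to 0.029 (Bmp7), -0.066 to 0.014 (Bmpr1a), -0.055 to 0.32 (Bmpr1b), -0.14 to 0.19 (Smad6), 0.29 to 0.58 (Id1) and -0.036 to 0.28 (Id3). For control against Day 0 they were -0.080 to 0.0021 (Bmpr1a), -0.079 to 0.21 (Bmpr1b) and -0.66 to -0.46 (Id3, called in 5 of 8). For compression against Day 0 they were -0.31 to -0.11 (Bmp2, called in 1 of 8), 0.31 to 0.49 (Bmp4, 3 of 8), -0.87 to -0.62 (Grem1, 4 of 8), -0.48 to -0.14 (Smad6, 1 of 8) and -0.61 to -0.30 (Id3, 1 of 8), and 2 to 5 members were called, 2 without Day 0 replicate 1 or compression replicate 3. Over all genes, compression against Day 0 had the fewest calls without compression replicate 2 (6555 of 15379 genes). It had the most without compression replicate 1 (7597 of 15368 genes). Bmp5 and Bmp7 were called against Day 0 in 8 of 8 such fits of each comparison.

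Signs turned for members far from the threshold. With limma-voom these were Bmp2 (-0.052), Bmpr1a (0.025) and Smad6 (-0.10) for compression against control and Bmpr1b (-0.019) for control against Day 0. With only the libraries that had Y-linked reads these were Bmp7 (0.072) and Bmpr1b (-0.23), and with compression replicates 2 and 3 summed Bmp5 (-0.036), all for compression against control. Limma-voom also called 1 member and 8 other pathway genes (7 higher, 1 lower) for compression against control, with Id1 at 0.37, and Smad6 (-0.33) and Id3 (-0.45) for compression against Day 0. DESeq2 called Id3 (-0.40) but not Grem1 (-0.72) for compression against Day 0, the summed replicates lost Bmp4 (0.37), and the fit of only the groups compared called Smad6 (-0.34) for control against Day 0. The cause of these changes was not tested. Over all genes, compression against control had 0 calls by edgeR, 69 by DESeq2, 1958 by limma-voom, 4 with only the groups compared, 53 without control replicate 4, 19 without compression replicate 1 and 1 without control replicate 3 or compression replicate 4.

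Same-numbered libraries did not deviate together in every pair (residual correlations -0.181 to 0.166), but for control against Day 0 all were positive (0.0487 to 0.112). For compression against control, a replicate block in edgeR gave Id1 an SE of 0.080, against 0.165 without it (adjusted p = 0.14). Bmp4 then had an SE of 0.067, against 0.142 (adjusted p = 0.142), while the SEs of Bmp2, Bmp5 and Grem1 were slightly larger. With the replicate block, Id1 (0.26, adjusted p = 0.0186) and Id3 (-0.42, adjusted p = 0.0423) passed for compression against Day 0. Members called were then 6, against 4, beside 7895, against 7489, of all 15246 genes, and no other member's call changed.

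Grem1 had the fewest reads of the members, and the unknown strand setting leaves Bmp5 and its antisense neighbour together.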

Other observations

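Of the 4 ligands, weighed per kilobase of exon, Bmp4 and Bmp5 made up most of the summed level in every library. Bmp4 held 46.3% to 51.3% of it in compressed lungs, 39.8% to 48.4% in controls and 42.4% to 53.6% at Day 0. Bmp5 held 36.5% to 41.9% in compressed lungs, 40.5% to 48.9% in controls and 29.7% to 40.2% at Day 0. Bmp7 held 5.61% to 7.1% in compressed lungs, 6.52% to 7.4% in controls and 9.68% to 12.2% at Day 0, so that its Day 2 shares lay below all Day 0 shares while its own levels overlapped. The 4 ligands summed to 69.2 to 86.4 CPM per kb in compressed lungs, 66.8 to 79.2 in controls and 58.1 to 65.4 at Day 0.

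Among the members themselves, the most alike patterns over the 12 libraries were those of Smad6 and Id3, with a root mean square difference of 0.118 log2 units, ahead of Bmp2 and Smad6 (0.165), Bmp7 and Smad6 (0.189) and Bmp4 and Id1 (0.191). The least alike were Bmp5 and Grem1 (0.701). Both values are descriptions over libraries that share depth and group.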
